A study of Macaca fascicularis with 10 samples.

Results

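PCDH8, a protocadherin gene, was followed over 10 arrays of cynomolgus monkey (Macaca fascicularis) RNA, each hybridised to an Affymetrix Rhesus Macaque array. It was read by 1 probe set, MmuSTS.3573.1.S1_at, the only 1 of the 52865 in the table whose annotated symbol was PCDH8, and was 1 of 14132 genes named by a probe set with a single symbol. The gene was chosen by measured values, for its large difference between parthenogenetic haploid embryonic stem cells (PG-haESCs) and embryonic stem cells (ESCs) of embryos made by intracytoplasmic sperm injection (ICSI). That difference, and the levels in the groups that enter it, are therefore given as a description, with no test. The haploid cells, which descend from an egg without a sperm genome, gave 5 arrays: line MPH1 under the code M1 at passages 8 and 11, line MPH1 under the code M2 at passages 7 and 9, and line MPH2 under the code M12 at passage 4. The diploid ICSI ESCs gave 3 arrays, 1 for each of the lines MES1 (passage 12), MES2 (passage 4) and MES3 (passage 4). Female somatic fibroblasts, also labelled diploid, gave 2 arrays of 1 line name, MF, at passages 14 and 15. The labels state the growth conditions for the haploid cells: a feeder layer and ES medium with the compounds Y27635 and Thiazovivin. Why MPH1 carries 2 codes, and whether arrays of 1 line came from separate cultures, is not stated in the labels, so the spread between arrays may be technical in part.

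Protocadherins are cadherin-related membrane proteins that hold cells together weakly or set how strongly other cadherins do so. PCDH8 belongs to the delta protocadherins, the family's non-clustered members with conserved motifs in their cytoplasmic tails. In frog and fish embryos it is known as paraxial protocadherin, a gene of the mesoderm that flanks the midline during gastrulation, where it works with the WNT receptor FZD7 in the movements that lengthen the body axis. In neurons it is known as arcadlin, a protein made after synaptic activity that draws N-cadherin off the surface through the kinase TAOK2 and p38 kinases.

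Signals are in the linear units of MAS5, Affymetrix's summary of the probes of a probe set, and every array had been scaled to a trimmed mean of 500. Array medians ran from 76.8 to 133, and a signal below its array's median is treated here as dim, since no detection calls were at hand. The 7 measured pluripotency markers summed to 57240 to 84690 on PG-haESC arrays, 53210 to 67430 on ICSI ESC arrays and 2583 to 2676 on the arrays labelled fibroblast. All 7 were above the array median on every PG-haESC array, and 6 or 7 were on the ICSI ESC arrays. NANOG alone did not set the labels apart, at 1107 to 2434 on the ESC arrays and 2083 and 1904 on the arrays labelled fibroblast. The 7 measured fibroblast markers summed to 163200 and 165000 on the arrays labelled fibroblast. Of these THY1, at 1185 to 4890 on the ESC arrays, was no brighter on the arrays labelled fibroblast (1864 and 1549). The 5 measured epidermis markers were as bright there, at 165700 and 167800 against 3220 to 4720 on the ESC arrays, so those 2 arrays carry the genes of outer skin beside those of fibroblasts. ICSI ESC array 1 (MES1) stood apart from the other ESC arrays, with a sum of 98610 for the fibroblast markers against 3661 to 34950 on the other 7.

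PCDH8 was bright in every haploid sample, low in every ICSI ESC line and dim on the arrays labelled fibroblast. In MPH1 its signal was 6037 at passage 8 and 3687 at passage 11 under the code M1, and 12724 at passage 7 and 16529 at passage 9 under the code M2. In MPH2 it was 2270. These signals were 62.8, 27.8, 163, 173 and 29.1 times the medians of their arrays. The 5 values spanned 7.28-fold, with the arrays of code M2 highest and that of MPH2 lowest. Their geometric mean was 6387 (SD 1.20 log2, n = 5).

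In the ICSI ESCs the PCDH8 signal was 248 in MES1, 145 in MES2 and 145 in MES3, which is 2.12, 1.89 and 1.52 times the medians of those arrays. The geometric mean was 174 (SD 0.45 log2, n = 3). MES1, at passage 12, was 1.71-fold above MES2, while MES2 and MES3, both at passage 4, gave the same value to 3 digits. On the arrays labelled fibroblast the signal was 27.3 and 23.0, 0.22 and 0.21 times the array medians. Both values are dim, so they bound the level there rather than measure it.

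The order of the samples was thus MPH1 under M2, MPH1 under M1, MPH2, the ICSI ESC lines and the arrays labelled fibroblast. The 2 arrays of M2 lay above the 2 of M1, and MPH2 lay below all 4 MPH1 arrays. With so few arrays many genes can separate by code, and the share that did was not computed. MES2 and MES3 are neighbours in that order that did not differ. The lowest PG-haESC signal (MPH2) was 9.15-fold above the highest ICSI ESC signal (MES1). The lowest ICSI ESC signal (MES3) was at least 1.19-fold above the arrays labelled fibroblast, with these raised to their medians. In RNA of whole cultures, fewer cells that express PCDH8 and less RNA per cell cannot be told apart.

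**Figure D1:**
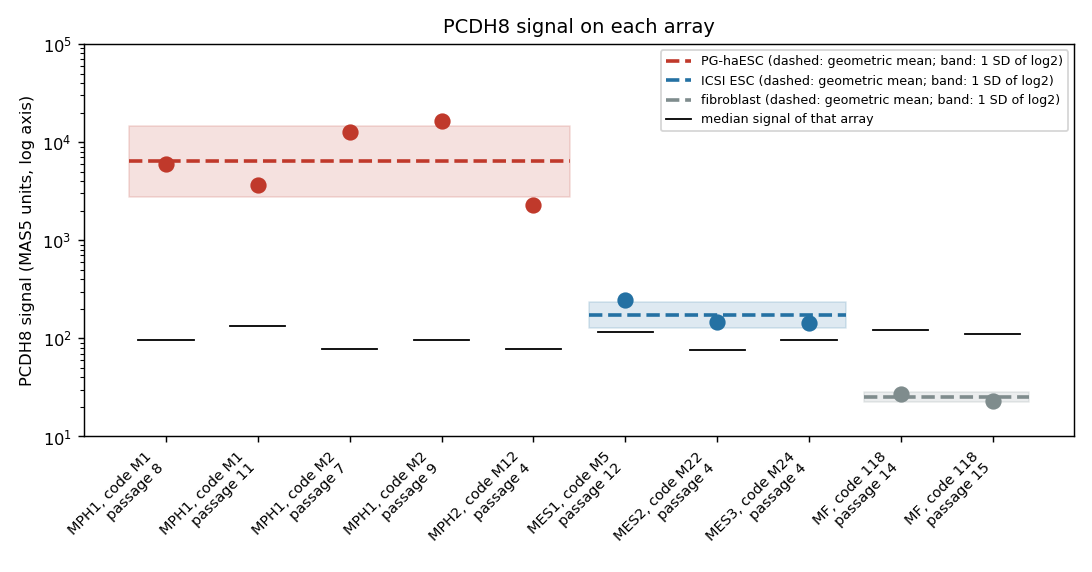
PCDH8 signal in MAS5 units (log axis) on each of the 10 arrays, with the geometric mean of each group (dashed), a band of 1 SD of log2 signal and the median signal of each array (black line). The 5 PG-haESC arrays lie between 2270 and 16529, the 3 ICSI ESC arrays between 145 and 248 just above their array medians, and the 2 arrays labelled fibroblast at 27.3 and 23.0 below theirs.

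The geometric means of PG-haESCs and ICSI ESCs stood 36.8-fold apart. The model that weights arrays by line put the log2 difference at 4.98 ± 0.63 (SE, limma), or 31.6-fold, and without ICSI ESC array 1 at 5.35 ± 0.65, or 40.8-fold. All 5 PG-haESC arrays were above all 3 ICSI ESC arrays, as was so for 590 of the 11676 genes tested (5.05%). Of all probe sets tested, 0.451% differed between the groups at an adjusted p under 0.05. Between single arrays of equal or near passage number the gap was narrower than between the group means. MPH2 at passage 4 was 15.6-fold above MES2 and 15.7-fold above MES3 at passage 4. MPH1 at passage 11 was 14.9-fold above MES1 at passage 12. In these pairs MPH2 is the lowest PG-haESC array, MPH1 at passage 11 the lowest of MPH1, and MES1 the highest ICSI ESC array. Passage and line cannot be told apart in them.

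Of the other measures of these arrays, most overlapped between the groups. Spike-in controls, labelled RNA added at hybridisation (bioB, bioC and bioD), had geometric means of 2527 to 7322 on PG-haESC arrays and 2498 to 5879 on ICSI ESC arrays. The sums of fibroblast markers were 3661 to 34950 in PG-haESCs and 4530 to 98610 in ICSI ESCs, and those of the 5 endoderm markers ran from 607 to 13210 and from 4931 to 17310. The endoderm overlap rests on PG-haESC array 2 alone (13210), since the other PG-haESC arrays, at 607 to 3562, lay below all ICSI ESC arrays. The sums of the 5 amnion and trophoblast markers did not overlap, at 1908 to 7078 in PG-haESCs and 628 to 1870 in ICSI ESCs. Of the 5, 4 or 5 were above the array median in PG-haESCs and 3 or 4 in ICSI ESCs. The gap was narrow, and VTCN1 alone of the 5 did not overlap (543 to 2208 against 102 to 254). GATA3, TFAP2A, ISL1 and GABRP each overlapped between the groups. In 5.05% of all genes tested, all PG-haESC arrays were above all ICSI ESC arrays. The sums of the 5 epidermis markers did not overlap either, at 3220 to 3683 in PG-haESCs and 3823 to 4720 in ICSI ESCs. In each group 2 or 3 of these were above the array median. The keratin gene KRT10 made up most of each sum (2573 to 3396 against 3516 to 4430). LORICRIN and IVL were dim on all ESC arrays. The log2 differences of KRT1, IVL and TP63 for PG-haESCs minus ICSI ESCs were above 0. All PG-haESC arrays lay below all ICSI ESC arrays for 376 of the 11676 genes tested. The part of these measures in the PCDH8 difference was not tested. No line gave both kinds of cell, so line and group cannot be told apart.

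Against the arrays labelled fibroblast, with each fibroblast signal raised to its array's median, PG-haESCs were at least 37.5-fold higher with arrays averaged per line and 47.4-fold higher in the model that weights by line. ICSI ESCs were at least 1.50-fold higher in both. On the signals as deposited the log2 differences were 7.78 ± 0.76 and 2.79 ± 0.77 (SE, limma). The second rests on how dim signals are read: it was 0.59 ± 0.73 with dim signals set to the array median, less than its own SE.

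Within MPH1 the choice of the gene used no difference between arrays, so these can be tested. The geometric mean of PCDH8 was 14502 under M2 (12724 and 16529, SD 0.27 log2) and 4718 under M1 (6037 and 3687, SD 0.50 log2), a 3.07-fold difference. The log2 difference of M1 minus M2 was -1.62 ± 0.33 (SE) and did not pass over all probe sets (limma, adjusted p = 0.37). No probe set was called in that comparison (0%), while 2441 of 34140 had an unadjusted p under 0.05. This fit takes its spread from all classes with more than 1 array.

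Passage number gave no clear relation within MPH1. PCDH8 read 12724, 6037, 16529 and 3687 at passages 7, 8, 9 and 11, so it neither rose nor fell steadily, and it was higher at the later passage under M2 and lower under M1. The slope was -0.36 ± 0.17 log2 per passage (SE) and did not pass (limma, adjusted p = 0.51). The passage fit has no term for the code and the code fit none for passage, so neither is adjusted for the other. The slope turned to 0.19 ± 0.33 without the array of M1 at passage 11. No probe set was called for passage (0%), and 3495 had an unadjusted p under 0.05. Among the ICSI ESCs the highest PCDH8 signal came from the array of the highest passage, and among PG-haESCs the lowest came from the array of the lowest passage, each of a different line.

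**Figure D2:**
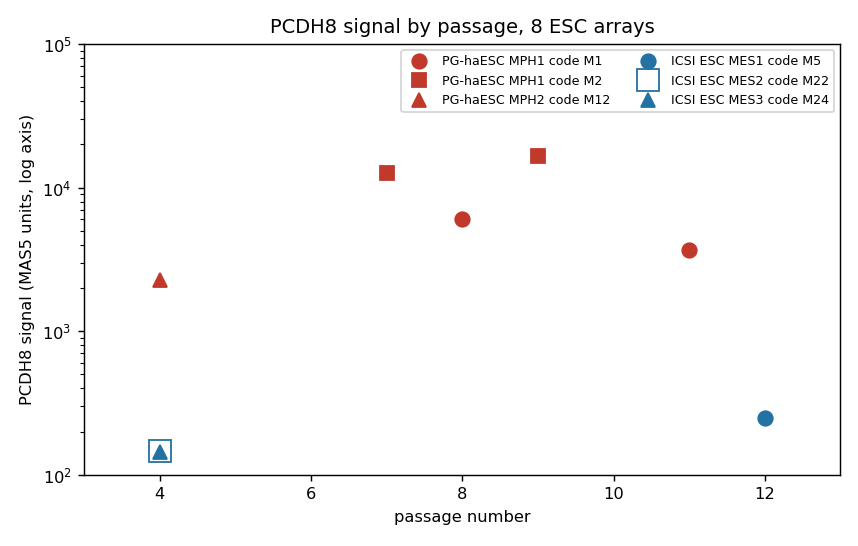
PCDH8 signal in MAS5 units (log axis) against passage number on the 8 ESC arrays, with a symbol for each line and code (the open square of MES2 surrounds the triangle of MES3). The arrays of MPH1 at passages 7 to 11 zigzag between 3687 and 16529 by code, and at passage 4 MPH2 (2270) lies above MES2 and MES3 (both 145).

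PCDH8 varied more between haploid arrays than most bright probe sets, a set that was not matched to its own level. Its SD of 1.20 log2 over the 5 PG-haESC arrays compares with a median of 0.23 over the 7685 probe sets with a mean signal of at least 1000 there, of which 0.547% had an SD as large. Over the 4 MPH1 arrays its SD was 0.99 against a median of 0.20, and 0.846% of the same probe sets reached it. Markers of other cell types varied between those arrays too. The endoderm sums in MPH1 were 3562 and 13210 under M1 and 1784 and 607 under M2, in the reverse order of the PCDH8 signals (6037, 3687, 12724 and 16529). This order, seen over 4 arrays, was picked out after the values were known. GATA4 of the endoderm list did not follow it. The primitive streak sums ran in the same reverse order (4338, 13180, 3127 and 1768), and those of the remaining marker lists did not. MPH2 did not follow that order, with a low endoderm sum (628) and the lowest PCDH8 signal of the group. The part of such cells in the PCDH8 spread was not tested.

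No other delta protocadherin was called between PG-haESCs and ICSI ESCs. Of 8 such genes 4 had a probe set named on the array, with 0 past the threshold in limma, 0 at an unadjusted p under 0.05 (8.76% of all genes tested had one) and a median log2 difference of 0.27 for PG-haESCs minus ICSI ESCs. Over all 11676 genes tested the median was -0.02, 47.9% lay above 0 and 0.574% were called. These shares over all genes are also the background for the lists that follow. The log2 differences were 1.59 ± 0.85 for PCDH10, 0.70 ± 0.40 for PCDH18, -0.15 ± 0.22 for PCDH11X and -0.19 ± 0.27 for PCDH7 (SE, adjusted p from 0.79 to 0.98). PCDH10, an adhesion molecule of developing brain, read 162, 148, 101, 368 and 437 in PG-haESCs 1 to 5 and 82.9, 80.5 and 67.9 in ICSI ESCs 1 to 3, where 1 of the 3 was above its array median. Its groups did not overlap either, and 5.05% of all genes tested had all PG-haESC arrays above all ICSI ESC arrays. The highest PCDH10 array was that of MPH2, where PCDH8 was lowest. PCDH18 overlapped, at 1638 to 4868 in PG-haESCs and 1409 to 3205 in ICSI ESCs.

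Further from PCDH8 in the family, 13 of 14 other non-clustered genes (protocadherins, FAT, Dachsous and cadherin-related genes) were on the array and 11 were tested. None was called, 2 had an unadjusted p under 0.05 and the median log2 difference was 0.08, or -0.11 with dim signals raised to the array median. Those 2 were the cadherin-related gene CDHR3, dim on all 5 PG-haESC arrays and at least 1.56-fold higher in ICSI ESCs (adjusted p = 0.49), and the giant cadherin gene FAT1 (0.30 ± 0.13, adjusted p = 0.64). Of 53 clustered protocadherins, which neurons use in combination to tell themselves apart, 12 were on the array and 8 were tested. None was called, 2 had an unadjusted p under 0.05 and the median was 0.23, or -0.03 with dim signals raised. PCDHB5, with the smallest adjusted p of the 8 (0.30 in limma), read 99.1 to 230 in PG-haESCs and was dim in ICSI ESCs (8.49 to 56.1), so it was at least 1.51-fold higher in PG-haESCs. PCDHA5 had -0.58 ± 0.23 (adjusted p = 0.55), and it passed without ICSI ESC array 1 (-0.84 ± 0.17, adjusted p = 0.042). Clustered protocadherins share sequence, so which copy these probe sets read is uncertain.

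Classical cadherins and catenins, the adhesion machinery that PCDH8 is known to adjust, were 17 genes, of which 14 were on the array and 11 were tested. None was called, 2 had an unadjusted p under 0.05 and the median log2 difference was 0.03. The largest was CDH5, the cadherin of vessel walls (2.46 ± 0.70, adjusted p = 0.22), which was above the array median on 1 of 3 ICSI ESC arrays, and the other of the 2 was the catenin gene CTNND1 (-0.44 ± 0.19, adjusted p = 0.61). CDH1, the epithelial cadherin, lay above the array median on 4 of 10 arrays and was dim on all ICSI ESC arrays (adjusted p = 0.77), so no fold is given. CDH2, which encodes N-cadherin, had no probe set named here.

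Of 17 partners of PCDH8 and genes of non-canonical WNT signalling, 16 were tested. None was called, 2 had an unadjusted p under 0.05 and the median log2 difference was -0.06. FZD7, the receptor with which paraxial protocadherin works, had the smallest p of them. It read 9668, 9160, 17130, 17920 and 12060 in PG-haESCs 1 to 5, 5940, 7932 and 7452 in ICSI ESCs 1 to 3, and 2600 and 2642 on the arrays labelled fibroblast. All PG-haESC arrays were above all ICSI ESC arrays, as for PCDH8 and for 5.05% of all genes tested. Within MPH1 the arrays of M2 were above those of M1, as for PCDH8 but also for SPRY1 and SPRY2 of the same list. The share of all genes with that order of the codes was not computed. The FZD7 difference was 0.83 ± 0.28 log2 or 1.78-fold and did not pass (adjusted p = 0.39), nor did that between the codes (-0.90, adjusted p = 0.35). Pearson's r of FZD7 with PCDH8 in log2 signal was 0.86 over the 8 ESC arrays and 0.75 over the 5 PG-haESC arrays, a description over arrays that share lines. The kinase gene MAP2K3, which activates p38, had -0.55 ± 0.22 (adjusted p = 0.54). TAOK2 had 0.30 ± 0.36, the p38 gene MAPK14 -0.01 ± 0.83, WNT5A -0.16 ± 1.08 and WNT11 -1.14 ± 0.74.

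**Figure D3:**
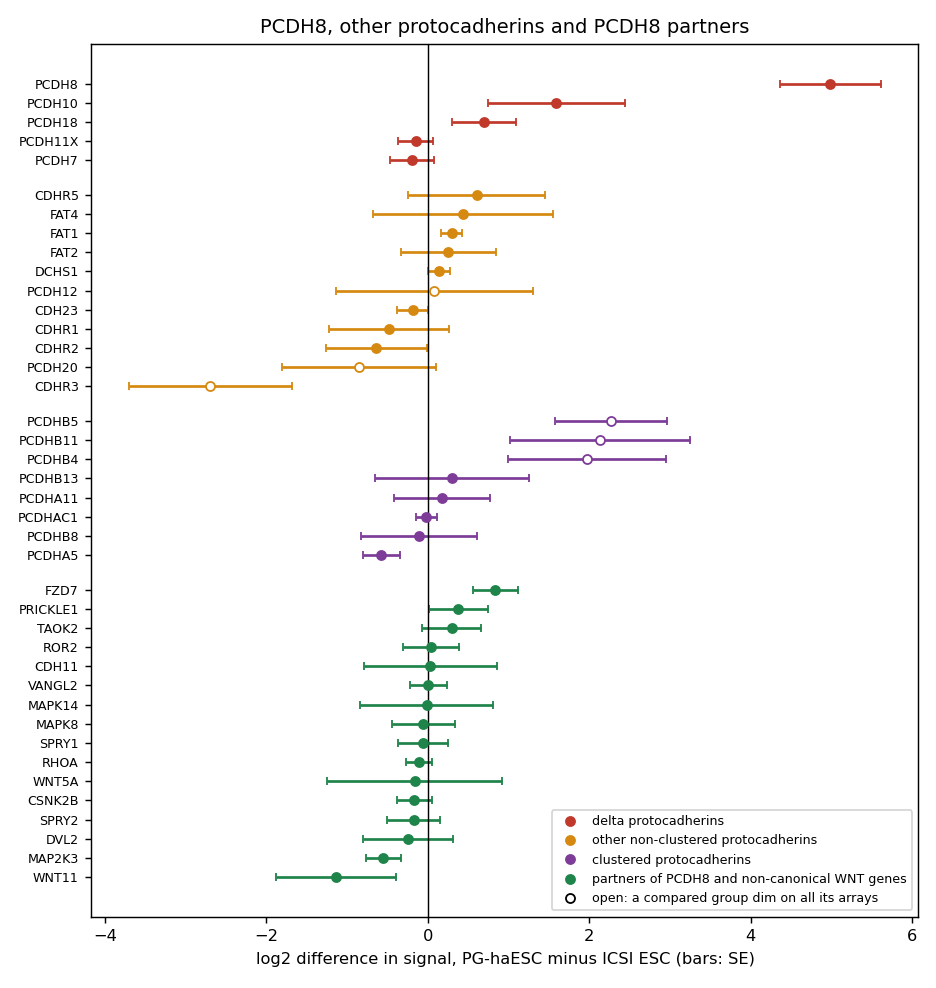
Log2 difference in signal between PG-haESCs and ICSI ESCs (bars, SE of the limma fit) for PCDH8, the other tested protocadherins and the partners and non-canonical WNT genes, by list. Open symbols mark genes dim on all arrays of a compared group, whose difference is not a measured size. PCDH8 stands at 4.98, and the other genes with filled symbols lie between -1.14 and 1.59.

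Genes of the embryonic tissues in which PCDH8 is known gave no call in the same comparison. Of 13 primitive streak genes 10 were tested, with none called, 2 at an unadjusted p under 0.05 and a median log2 difference of -0.63. TBXT, the streak gene brachyury, had -3.11 ± 1.16 (adjusted p = 0.49), with 116, 584, 115, 27.1 and 14.8 in PG-haESCs 1 to 5 and 365, 519 and 808 in ICSI ESCs 1 to 3. GSC, the organiser gene goosecoid, had -2.93 ± 1.17 (adjusted p = 0.56). In both the groups overlapped through PG-haESC array 2 alone (584 for TBXT and 2831 for GSC). The other PG-haESC arrays lay below all ICSI ESC arrays. Of 20 paraxial mesoderm genes 12 were tested, with none called, none at an unadjusted p under 0.05 and a median of -0.18. TBX6, a defining gene of that tissue, was dim on all 10 arrays. The paraxial mesoderm gene MEOX2 passed without ICSI ESC array 1 (2.82 ± 0.58, adjusted p = 0.043), a fit in which 1.16% of all probe sets were called. That call rests on dim signals, since 2 of 5 PG-haESC arrays and neither of the remaining 2 ICSI ESC arrays were above their medians, and with dim signals raised to the medians it was lost (0.22 ± 0.32, adjusted p = 0.92). With ICSI ESC array 1 the MEOX2 difference as deposited was 1.46 ± 0.92 (adjusted p = 0.87).

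Neural and neuronal genes gave no call either. Of 16 neural ectoderm genes 6 were tested, 3 of them with an unadjusted p under 0.05 (8.76% of all genes tested had one). Their median log2 difference was 0.67. DCX, a microtubule gene of young neurons, was dim on all 3 ICSI ESC arrays and at least 4.02-fold higher in PG-haESCs (adjusted p = 0.15), with its highest signal in MPH2 (1055) where PCDH8 was lowest. NCAM1, a neural adhesion gene, had 0.50 ± 0.20 (adjusted p = 0.55), and ZIC2 had -0.86 ± 0.36 (adjusted p = 0.58). Of 10 genes that neurons switch on with activity, as they do PCDH8, 8 were tested and none lay above 0 (47.9% of all genes tested did). Their median was -0.74, none was called and 1, NPAS4, had an unadjusted p under 0.05 (-1.20 ± 0.52, adjusted p = 0.63).

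Markers of other cell types that ESC cultures can hold were read in the same way. The 5 endoderm markers all lay below 0, while 47.9% of all genes tested lay above it. None was called, 2 had an unadjusted p under 0.05 (8.76% of all genes tested had one) and the median was -1.67. Among the 5 were SOX17 (-2.91 ± 1.16, adjusted p = 0.56) and CER1 (-3.36 ± 1.54, adjusted p = 0.67). Of the 7 pluripotency markers none was called, 1 had an unadjusted p under 0.05 and the median was 0.20. The 7 fibroblast markers had none called, none at an unadjusted p under 0.05 and a median of 0.05, and the 5 epidermis markers none called, 2 at an unadjusted p under 0.05 and a median of 0.26, or -0.06 with dim signals raised. The 5 amnion and trophoblast markers had a median of 1.85, 2 with an unadjusted p under 0.05 and 1 called. That was VTCN1, an immune checkpoint ligand also made by amnion (2.95 ± 0.57, adjusted p = 0.048, and 0.015 without ICSI ESC array 1). Among the 8 ESC arrays the sum of the 5 was highest in MPH2 (7078), the haploid array with the lowest PCDH8 signal.

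PCDH8 lies on chromosome 17 of the RefSeq annotation of T2T-MFA8v1.1, whose order of genes was used because the labels name no build for the array. In that annotation PCDH8 sits within the span of OLFM4, a gene of intestinal stem cells, and of an unmeasured long non-coding RNA, LOC123569879. OLFM4 read 1350 to 1658 in PG-haESCs and 1550 to 1947 in ICSI ESCs, a log2 difference of -0.16 ± 0.16. None of the 5 measured genes on either side was called. On the side of OLFM4 the log2 differences were 1.03 for CNMD, 0.25 for SUGT1, 0.27 for CKAP2 and 0.13 for VPS36. On the other side they were -0.07 for DIAPH3, 0.01 for TDRD3, -0.85 for PCDH20, 0.83 for DACH1 and 0.34 for BORA. CNMD, which encodes the cartilage protein chondromodulin, had the largest of the 10 (± 0.44 SE, adjusted p = 0.61). It read 222, 130, 214, 199 and 122 in PG-haESCs 1 to 5 and 88.2, 97.1 and 59.4 in ICSI ESCs 1 to 3. The groups did not overlap, as in 5.05% of all genes tested with PG-haESCs above, and 1 of the 3 ICSI ESC arrays was above its median. PCDH20, a protocadherin on the same chromosome, was dim on all PG-haESC arrays.

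**Figure D4:**
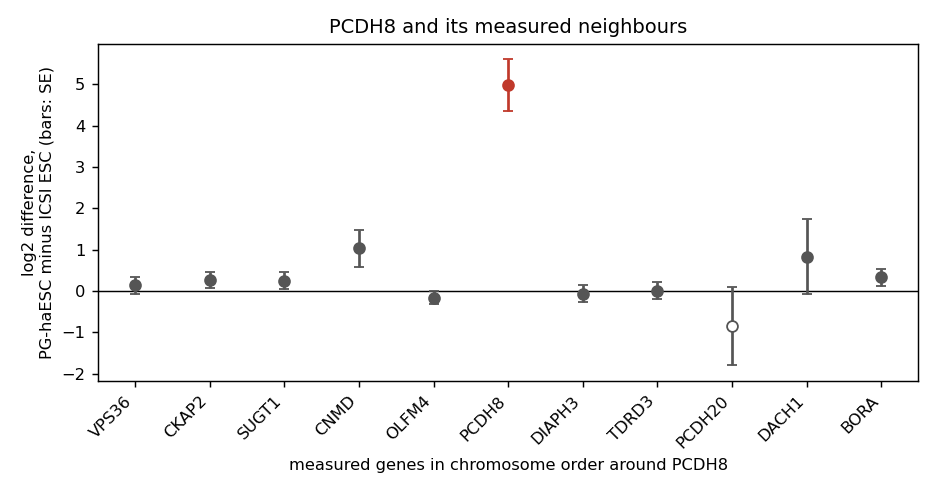
Log2 difference in signal between PG-haESCs and ICSI ESCs (bars, SE of the limma fit) for PCDH8 and the 5 measured genes on each side, in the order of the T2T-MFA8v1.1 annotation (spacing is not to scale). The open symbol of PCDH20 marks a gene dim on all PG-haESC arrays. PCDH8 stands at 4.98, CNMD is next at 1.03 and the others lie between -0.85 and 0.83.

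The genes most like PCDH8 over the 8 ESC arrays were ranked by Pearson's r in log2 signal among 11675 genes. They were PLS3 (0.990), an actin bundler, NUP62CL (0.980), HPRT1 (0.976), an enzyme of purine salvage, VTCN1 (0.976), LOC704147 (0.972), TSPAN7 (0.969), a tetraspanin, SMS (0.969), which makes spermine, and BNC2 (0.967), a zinc finger gene. The arrays fall into groups far apart in PCDH8, so r over them is largely that of the group gap, and with no test it is a description. Over the 5 PG-haESC arrays alone the same genes had r of 0.991, 0.870, 0.815, 0.855, 0.853, 0.837, 0.876 and 0.914. These arrays are among the 8 that ranked the genes, and 4.80% of all 11675 genes had an r of at least 0.815 over them. Their group differences were smaller than that of PCDH8: 1.47-fold for PLS3, 2.45-fold for NUP62CL, 7.72-fold for VTCN1 and 2.67-fold for BNC2. PLS3 followed PCDH8 most closely, at 22180, 21600, 24440, 25710 and 19990 in PG-haESCs 1 to 5 and 16890, 14330 and 14470 in ICSI ESCs 1 to 3, which is the same order of arrays but for MES2 and MES3.

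Least like PCDH8 were the mitochondrial carrier gene SLC25A37 (r of -0.984), RER1 (-0.963), the stress-response factor gene DDIT3 (-0.959) and TMED10 (-0.959), a cargo receptor of the early secretory pathway. In all, 122 genes (1.04%) had r of at least 0.9 and 56 of -0.9 or less. Many of the first are X-linked, although PCDH8 is not: 43 of the 108 with a placement (39.8%), against 380 of all 10576 genes placed (3.59%). Of the 52 placed genes with r of -0.9 or less 1 was X-linked. The 380 X-linked genes had a median log2 difference of 0.67 between PG-haESCs and ICSI ESCs. Over the 5 PG-haESC arrays alone, 10 of the 211 placed genes with r of at least 0.9 were X-linked (4.74%). With the arrays labelled fibroblast included, the genes with the highest r over 10 arrays were KNOP1 (0.978), VTCN1 (0.975), ALG13 (0.972), COMMD6 (0.972), GPR50 (0.968), VMA21 (0.967), MEIOB (0.967) and LOC708644 (0.966), of which VTCN1 alone was among the 8 above.

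**Figure D5:**
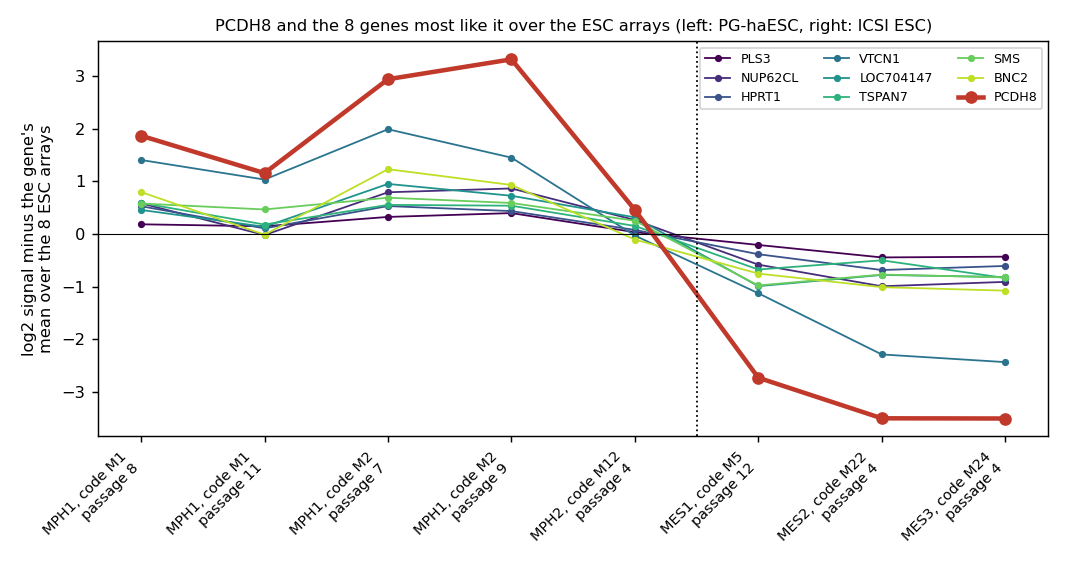
Log2 signal of PCDH8 and of the 8 genes with the highest Pearson's r to it over the 8 ESC arrays, each minus its own mean over those arrays, with PG-haESC arrays left and ICSI ESC arrays right of the dotted line. PCDH8 has a wider span than any of the 8, and the MPH2 array lies between the MPH1 arrays and the ICSI ESC arrays for most of them.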

How the data were processed

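Expression was read on 10 Affymetrix Rhesus Macaque arrays, 1 per sample. The deposited values are linear signal intensity made by the authors with MAS5, per the submitters' processing notes, which name no release. All arrays had a trimmed mean of 500. Of 52865 probe sets, 158 controls were left out and 34140 above the array median on at least 2 arrays were tested, for 11676 genes, each by its brightest probe set with that symbol alone. Symbols came from GEO's platform annotation: 24956 probe sets had 1, 361 several and 27390 none.

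The log2 signals of the groups were fitted in R 4.3.3 (limma 3.58.1), with group means of all 10 arrays, cell line as a random block (correlation 0.29), an intensity trend, two-sided tests and Benjamini-Hochberg adjustment over all probe sets tested. An adjusted p under 0.05 was called. Differences within MPH1 were fitted without the block. Where all arrays of a group were dim (below the array median), that group alone was raised to the medians and a lower bound of the fold is given for a single gene. Likeness is Pearson's r of log2 signal. The fits were tested on simulated data. Figures used matplotlib 3.10.9 in Python 3.11.15.

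The gene and the lists were chosen with earlier results of these data known. Named are PCDH8, the delta protocadherins on the array, up to 4 members of a list with the smallest p or a call, the 5 measured genes on each side, the 8 genes most and the 4 least like PCDH8 over 8 arrays, the 8 most like over 10 arrays, and markers that check the labels. CDH1, CDH2, TBX6, TAOK2, MAPK14, WNT5A, WNT11 and MEOX2 are named beside these, as defining members of their lists or after their values were seen. Alternatives were an offset of 32 before log2, quantile normalization, arrays centred on their medians, dim signals set to the array median, arrays independent or averaged per line, only the groups compared, only the 4 MPH1 arrays, no intensity trend, no filter, a 75th percentile filter, a gene's probe sets averaged, and leaving out each array. Leaving out ICSI ESC array 1 with dim signals raised was added after seeing the data.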

Additional observations from a re-analysis of the deposited data

Results flagged for a closer look

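In a group of 4 to 10 arrays, the gap of the highest or lowest array to its nearest neighbour was set against the range of the group, and 5 of the 92 genes named by rule had an array apart among the 5 PG-haESC arrays (beyond Dixon's 95% limit). Chance gives about 1 such group in 20. PCDH8 was not among them. The MPH2 array was the lowest for PCDH7 (gap of 0.771 of the range, 419 against 709 to 829), for the pluripotency gene ZFP42 (0.711, 361 against 1159 to 1860) and for OLFM4, the gene whose span holds PCDH8 (0.760, 1350 against 1578 to 1658). The array of MPH1 under M1 at passage 11 was the lowest for CKAP2, a spindle gene near PCDH8 (0.805, 6652 against 9382 to 10200), and the highest for the epidermal keratin gene KRT1 (0.715, 278 against 116 to 149).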

How the results depend on the processing

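The PCDH8 difference between PG-haESCs and ICSI ESCs moved by less than 1 SD under all 17 alternatives tried, with 4.64 to 5.57 log2. The difference from the arrays labelled fibroblast kept its direction in all of them. It moved by more than 1 SD with dim signals set to the array median, to 5.56 for PG-haESCs and 0.59 for ICSI ESCs, and with an offset of 32, to 1.85 for ICSI ESCs. The difference between the codes of MPH1 stayed short of the threshold under all 18 alternatives (-2.01 to -1.26, adjusted p from 0.098 to 0.90). The slope on passage reversed without PG-haESC array 2 (0.19), ran from -0.45 to 0.19 with any array left out, and never passed (adjusted p from 0.23 to 1 over 18 alternatives). Where leaving out an array left a code with 1, the fit assumes that it varies like the other classes. Counts of called protocadherins other than PCDH8 and of called mesoderm and streak genes were 0 under 19 of 20 alternatives and 1 without ICSI ESC array 1, so 0 to 1 with any array left out. With dim signals also raised, a choice made after seeing the data, they were 1 and 0. List medians kept their sign under an offset, quantile normalization and centring, and 3 turned negative with dim signals raised (-0.11 for other non-clustered protocadherins, -0.03 for clustered ones and -0.06 for epidermis markers), while the median over all genes moved by less than 0.1.

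The mean of all probe sets could not be used for PCDH8, which has 1, and ICSI ESCs against fibroblasts could not be fitted alone with the line block. No paired analysis was possible because the numbers of ICSI ESC samples name lines, those of fibroblasts name arrays and nothing in the labels links them. No signal here carries a count or a detection call, so the precision is limited by the number of arrays, and levels below the array median are bounds.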
